A study of Mus musculus with 12 samples.

Results

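Integrins are adhesion receptors built from 1 alpha and 1 beta chain, and the RNA of 10 of these chains was followed through the last steps of basophil development in mice. The chains were Itga2, which encodes CD49b, a surface marker used to recognise mouse basophils, together with Itga2b, Itga4, Itgal, Itgam, Itgax, Itgb1, Itgb2, Itgb3 and Itgb7. They were taken by gene symbol from a table of 32227 genes, with earlier results of these data known. All 10 passed the count filter that left 15083 genes for testing. Bulk RNA sequencing was performed on 12 libraries of cells sorted from C57BL/6J WT mice, in 4 groups of 3. Basophil progenitors (BaPs) were CD200R3+ cKit- CLEC12A-high CD34+ bone marrow (BM) cells, pre-basophils (immature basophils in the sample titles) were CD34- CLEC12A-high CD9-low BM cells, and mature basophils were CD34- CLEC12A-low CD9-high cells of the BM or of the spleen. No treatment is named, each library pooled cells of several animals, and the ages of the animals were not stated in the labels. The spread between replicates is therefore the spread between pools.

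An alpha chain reaches the cell surface only with a beta partner, and the pair decides the ligand. Itga2 pairs with Itgb1 as a collagen receptor, Itga2b with Itgb3 as the fibrinogen receptor of platelets, and Itga4 with Itgb1 or Itgb7 as a receptor for VCAM-1, fibronectin or the gut addressin MAdCAM-1. Itgal, Itgam and Itgax pair with Itgb2, the chain shared by the leukocyte integrins, and form LFA-1, Mac-1 (complement receptor 3) and CD11c/CD18, which bind ICAM molecules and complement fragments. Surface CD49b varies together with CLEC12A and CD9, on which the sort rested, so the groups are not independent of CD49b protein. Whether CD49b itself formed part of this gate was not given in the sources used here. In bulk libraries, fewer cells of a type and less RNA per cell cannot be told apart.

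Library totals ran from 3596108 to 8151030 counts. The basophil markers Mcpt8, Cd200r3, Fcer1a, Ms4a2, Prss34, Gata2, Il3ra and Cpa3 were detected in every library. Their summed level was 60855 to 69627 counts scaled to the same library total (CPM) in pre-basophils. It was 10688 to 13367 CPM in BM mature basophils and 5339 to 6012 CPM in spleen mature basophils. The paper reports lower Fcer1a, Mcpt8 and Prss34 in mature than in pre-basophils, so sums of different stages do not compare basophil content. The library labelled BaP replicate 3 stood apart. Its basophil marker sum was 24998 CPM, against 62636 and 67654 CPM in the other two BaP libraries. Its natural killer (NK) cell markers summed to 733 CPM, against 4.54 and 6.37 CPM, and its platelet and megakaryocyte markers to 215 CPM, against 8.12 and 9.43 CPM, with all 8 genes of each list detected. Monocyte and dendritic cell markers summed to 310 CPM in it, against 29.6 and 42.2 CPM, T cell markers to 339 CPM, against 168 and 176 CPM, and B cell markers to 185 CPM, against 33.9 and 34.9 CPM. Neutrophil markers varied in both immature groups, from 168 and 704 to 2099 CPM among BaPs and from 379 and 865 to 1929 CPM among pre-basophils, in each with the highest sum in replicate 3. Mast cell markers stayed at or below 6.49 CPM in every library. Of the genes behind the sort, Clec12a was at 129 to 327 CPM in the 6 immature libraries and 10.9 to 39.1 CPM in the 6 mature ones, and Cd34 was at 21.0 to 35.6 CPM in BaPs and at most 12.4 CPM elsewhere. NK cells and platelets carry several of the integrins described here, so the BaP values that this library moved are given without it as well, and the part of those cells in the results was not tested.

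Itga2 had its lowest mean in BaPs and its highest in BM mature basophils. Its level was 32.5, 42.0 and 63.1 CPM in BaP replicates 1 to 3 and 83.3, 97.6 and 72.9 CPM among pre-basophils. In mature basophils it was 157, 201 and 161 CPM in the BM and 125, 171 and 124 CPM in the spleen. The bone marrow groups did not overlap in this order, whereas the BM and spleen mature libraries did. The group means were 45.9 ± 15.7, 84.6 ± 12.4, 173 ± 24.4 and 140 ± 27.1 CPM (SD, n = 3 each).

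**Figure D1:**
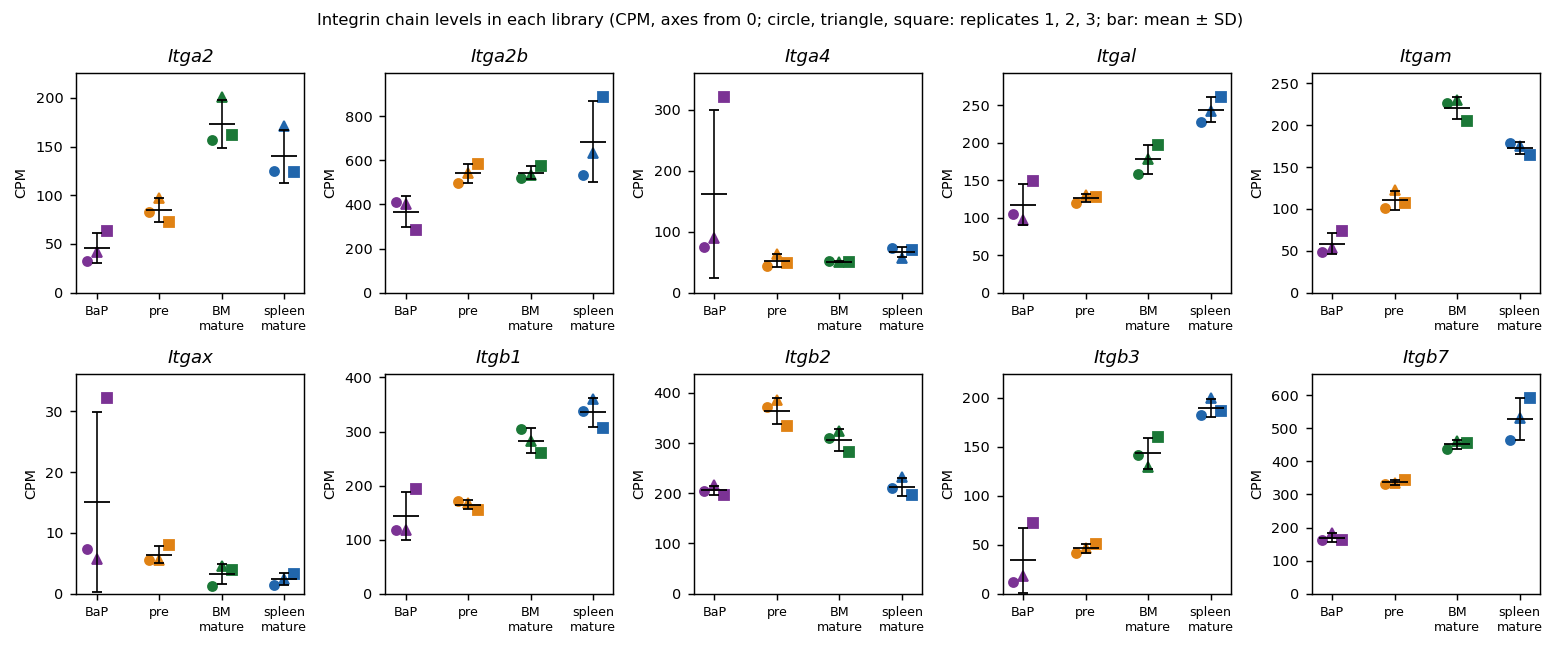
Level of each of the 10 integrin chains in CPM (y axes from 0) by group (x axes), with circles, triangles and squares for replicates 1, 2 and 3 and black bars for mean ± SD. Itga2 and Itgam rise from BaPs to BM mature basophils, Itgb2 is highest in pre-basophils, and BaP replicate 3 (square) lies far above the other two BaP libraries for Itga4, Itgax and Itgb3.

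Against BM mature basophils, pre-basophils held 2.05-fold less Itga2 RNA (log2 fold change -1.03 ± 0.21 SE, adjusted p = 0.00277), and BaPs held 1.82-fold less than pre-basophils (log2 fold change -0.86 ± 0.22 SE, adjusted p = 0.0316). These and all later adjusted p-values come from edgeR's quasi-likelihood test fitted over all 15083 genes, with Benjamini-Hochberg adjustment. Genes with an adjusted p under 0.05 were called, and a log2 fold change below 0 means less RNA in the earlier stage or, for the mature groups, in the spleen. The difference between spleen and BM mature basophils was -0.31 ± 0.21 SE on the log2 scale and was not called (adjusted p = 0.396). The call between BaPs and pre-basophils was lost without BaP replicate 1 (adjusted p = 0.0686), without BaP replicate 2 (0.0675) and without any single pre-basophil library (0.0589 to 0.130), and also with the compared groups fitted alone or with scaling by library size alone (0.131). It strengthened without BaP replicate 3, to -1.17 (adjusted p = 0.00041).

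The Itga2 gene spans 99.0 kb of chromosome 13 (chr13:114833081-114932100, minus strand, GRCm38, GENCODE M21), and its longest coding transcript has 30 exons and 7108 bases. Over the 12 libraries, the 5 genes whose log2 CPM followed that of Itga2 most closely, of 8438 genes with a mean of at least 10 CPM, were Cds2 (Pearson r = 0.994), Mxd1 (0.991), Itgam (0.980), Arhgap9 (0.978) and Dennd1c (0.977). The 12 points share their groups and library depths, so the values are a description. Cds2 makes CDP-diacylglycerol for phospholipid synthesis, and Mxd1 encodes a repressor that competes with Myc for its partner Max. Among the beta chains, Itgb3 stood at rank 282 (r = 0.911), Itgb1, the partner of Itga2, at rank 416 (0.896) and Itgb7 at rank 439 (0.893).

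Of the alpha chains that pair with Itgb2, Itgam rose at both steps within the bone marrow, and Itgal was called at the later step. Itgam, the CD11b chain, was at 49.2, 53.5 and 73.1 CPM among BaPs and at 101, 123 and 107 CPM among pre-basophils. It reached 227, 230 and 205 CPM among BM mature basophils and stood at 179, 175 and 164 CPM in the spleen. No 2 of these groups overlapped. It was 1.99-fold lower in pre-basophils than in BM mature basophils (log2 fold change -0.995 ± 0.14 SE, adjusted p = 0.000192) and 1.87-fold lower in BaPs than in pre-basophils (-0.91 ± 0.14 SE, adjusted p = 0.00254). The spleen against BM difference of -0.35 ± 0.14 SE was not called (adjusted p = 0.136).

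Reads of Itgam could be split with another gene model. Gm49368, a coding model on the same strand, overlaps 55809 bases of the Itgam locus (chr7:128062640-128118491, plus strand), and 74.1% of the 31-base words of the longest Itgam transcript also occur in transcripts of other genes, with Gm49368 sharing the most. Gm49368 took 9.48% to 14.8% of the summed counts of both. With its reads added to Itgam, the log2 fold changes were -1.02 and -0.89 in the same 2 comparisons, and no call on a member changed.

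Itgal, the CD11a chain of LFA-1, was at 106, 97.6 and 149 CPM among BaPs and at 120, 130 and 127 CPM among pre-basophils. It was at 158, 179 and 197 CPM among BM mature basophils and at 228, 243 and 261 CPM in the spleen. BaPs and pre-basophils overlapped, whereas the mature groups lay above both and apart from each other. Itgal was 1.41-fold lower in pre-basophils than in BM mature basophils (log2 fold change -0.50 ± 0.15 SE, adjusted p = 0.0230). That call was lost without any 1 of the pre-basophil libraries and without BM mature replicate 2 or 3 (adjusted p = 0.0585 to 0.0952). The difference between BaPs and pre-basophils was -0.10 ± 0.15 SE on the log2 scale (adjusted p = 0.764).

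Itgax, the CD11c chain, was the least abundant member per kilobase of transcript. It was at 7.41, 5.66 and 32.2 CPM among BaPs and at 5.59, 5.60 and 8.0 CPM among pre-basophils, and between 1.27 and 4.51 CPM in the 6 mature libraries. BaP replicate 3 alone set the high BaP mean of 15.1 ± 14.9 CPM (SD, n = 3). The BaP against BM mature difference was called with this library (log2 fold change 2.23 ± 0.60 SE, adjusted p = 0.00799) and not without it (0.95 ± 0.41 SE, adjusted p = 0.0599). Of its 31-base words, 12.8% also occur in the neighbouring family member Itgad, so that part of its reads could be split.

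Itgb2 itself, the CD18 chain, was highest in pre-basophils. Its level was 205, 216 and 197 CPM among BaPs, 371, 386 and 334 CPM among pre-basophils, 311, 325 and 282 CPM among BM mature basophils and 210, 233 and 197 CPM in the spleen. Pre-basophils did not overlap any other group, while BaPs and spleen mature basophils occupied the same range. It was 1.77-fold lower in BaPs than in pre-basophils (log2 fold change -0.82 ± 0.11 SE, adjusted p = 0.000819) and 1.44-fold lower in the spleen than in BM mature basophils (-0.52 ± 0.11 SE, adjusted p = 0.0136). The pre-basophil against BM mature difference of 0.25 ± 0.11 SE was not called (adjusted p = 0.103). The spleen call was lost without BM mature replicate 1 (0.0584), BM mature replicate 2 (0.0576) or spleen replicate 3 (0.0746). Neutrophils also carry Itgam and Itgb2, and their markers, at the pre-basophil sums given above, stood at 67.4 to 99.6 CPM among BM mature basophils and 55.7 to 59.0 CPM in the spleen. The part of neutrophils in these differences was not tested.

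Expressed per kilobase of the longest coding transcript, the 4 alpha chains that pair with Itgb2 were made up mainly of Itgal and Itgam. The share of Itgam in their sum was 32.3% ± 3.09 for BaPs, 47.3% ± 1.80 in pre-basophils, 57.4% ± 4.08 in BM mature basophils and 43.8% ± 2.86 in the spleen (SD, n = 3 each). The share of Itgal was 57.8% ± 4.10, 48.4% ± 1.32, 41.5% ± 3.75 and 55.4% ± 2.55. The ratio of Itgam to Itgal per kilobase thus ran from 0.56 ± 0.05 in BaPs over 0.98 ± 0.06 in pre-basophils to 1.40 ± 0.22 in BM mature basophils, and was 0.79 ± 0.09 in the spleen. Every BM mature library had more Itgam than Itgal, and every spleen and BaP library had less. With the reads of Gm49368 added to Itgam, the ratios became 0.64 ± 0.06, 1.11 ± 0.05, 1.61 ± 0.24 and 0.91 ± 0.10 in the same order of groups, and all pre-basophil libraries and spleen replicate 1 (1.01) then had more Itgam than Itgal. Itgax took 15.0% of the sum in BaP replicate 3, 5.59% and 4.35% in the other two BaP libraries and at most 3.97% elsewhere.

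**Figure D2:**
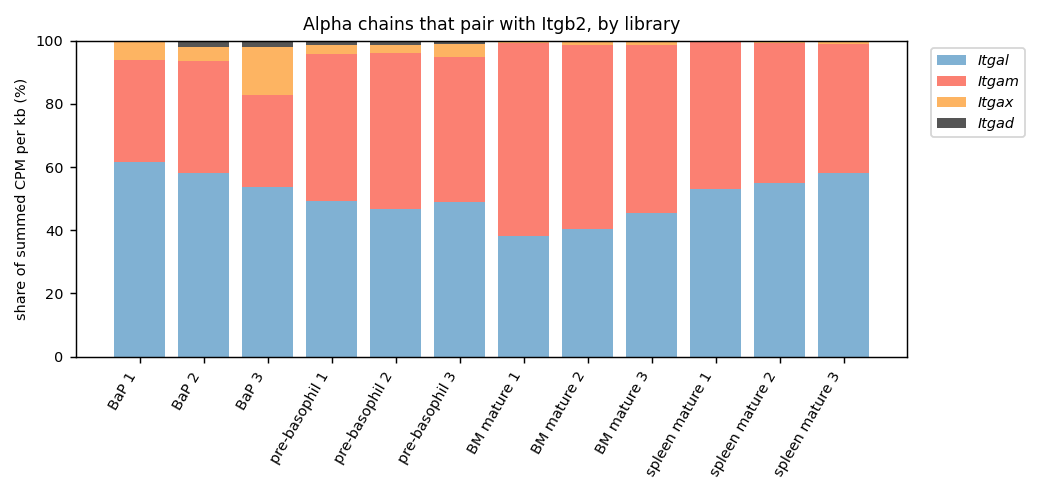
Share of each alpha chain that pairs with Itgb2 in their summed CPM per kilobase (y axis, percent), 1 stacked bar per library. The Itgam share is 29.4% to 35.6% for BaPs, 46.0% to 49.3% in pre-basophils, 53.1% to 61.1% in BM mature basophils and 40.8% to 46.5% in the spleen.

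Itgb7, which pairs with Itga4 or with Itgae, rose at each step within the bone marrow. It was at 161, 184 and 161 CPM among BaPs, 331, 335 and 344 CPM among pre-basophils, 437, 461 and 456 CPM among BM mature basophils and 466, 530 and 592 CPM in the spleen. No 2 groups overlapped. BaPs were 2.0-fold below pre-basophils (log2 fold change -0.997 ± 0.11 SE, adjusted p = 0.000274), and pre-basophils were 1.34-fold below BM mature basophils (-0.42 ± 0.11 SE, adjusted p = 0.0112). The later call was lost with DEGES scaling, the study's kind of normalization (adjusted p = 0.0525).

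Itgb1, the CD29 chain and partner of Itga2 and Itga4, was at 118, 117 and 194 CPM among BaPs and 171, 167 and 155 CPM among pre-basophils. It was at 306, 283 and 260 CPM among BM mature basophils and 339, 361 and 307 CPM in the spleen. All mature libraries lay above all immature ones. Itgb1 was 1.72-fold lower in pre-basophils than in BM mature basophils (log2 fold change -0.79 ± 0.17 SE, adjusted p = 0.0037). Between BaPs and pre-basophils it differed by -0.19 ± 0.17 SE on the log2 scale and was not called (adjusted p = 0.556), whereas without BaP replicate 3 the difference was -0.47 ± 0.11 SE and called (adjusted p = 0.00893). The ratio of Itgb7 to Itgb1 per kilobase averaged 1.79 ± 0.55 for BaPs, 2.92 ± 0.21 in pre-basophils, 2.28 ± 0.23 in BM mature basophils and 2.26 ± 0.42 in the spleen (SD, n = 3 each). BaP replicates 1 to 3 had ratios of 1.94, 2.24 and 1.18, so replicate 3 lowered the BaP mean.

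Itgb3, the CD61 chain, showed the largest called difference between BM mature basophils and pre-basophils among the 10 chains. It was at 11.7, 18.4 and 72.3 CPM among BaPs and at 41.6, 46.7 and 50.9 CPM among pre-basophils. It was at 141, 129 and 159 CPM among BM mature basophils and at 182, 200 and 186 CPM in the spleen. BaP replicate 3 lay above every pre-basophil library and the other two BaP libraries lay below them. Itgb3 was 3.07-fold lower in pre-basophils than in BM mature basophils (log2 fold change -1.62 ± 0.43 SE, adjusted p = 0.0133), and the call was lost without pre-basophil replicate 1 (adjusted p = 0.0555). Between BaPs and pre-basophils the difference was -0.38 ± 0.44 SE (adjusted p = 0.666) with all libraries and -1.62 ± 0.18 SE (adjusted p = 1.33e-05) without BaP replicate 3.

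Its partner Itga2b, the CD41 chain, was lowest in BaPs. It was at 412, 402 and 286 CPM among BaPs, 497, 545 and 583 CPM among pre-basophils, 518, 536 and 576 CPM among BM mature basophils and 531, 635 and 888 CPM in the spleen. BaPs lay below all other libraries, and the pre-basophil and BM mature ranges overlapped. Between these groups the difference was -0.01 ± 0.18 SE on the log2 scale (adjusted p = 0.987), a direction that turned with scaling by library size alone and with DEGES scaling. BaPs were 1.48-fold below BM mature basophils (-0.57 ± 0.18 SE, adjusted p = 0.0184), a call lost without BM mature replicate 3 (0.0602) and with DEGES scaling (0.0581) or scaling by library size alone (0.393). The difference of -0.56 ± 0.18 SE from pre-basophils was not called (adjusted p = 0.0720). It was called in 4 of 23 other settings. They were replicate number as a block in the bone marrow libraries alone (adjusted p = 0.0431), DESeq2 (0.0447), no filter on low counts (0.00251) and the fit without spleen mature replicate 3 (0.0411). Without BaP replicate 3, BaPs differed by -0.40 from pre-basophils (adjusted p = 0.0965) and by -0.41 from BM mature basophils (adjusted p = 0.0338). Per kilobase, Itga2b exceeded Itgb3 by 34.2 ± 26.4 times for BaPs, 19.7 ± 0.40 times in pre-basophils, 6.43 ± 0.50 times in BM mature basophils and 6.10 ± 1.68 times in the spleen (SD, n = 3 each). BaP replicates 1 to 3 stood at 59.2, 36.8 and 6.65 times, so the BaP mean was lowered by replicate 3.

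Platelet and megakaryocyte markers (Pf4, Ppbp, Gp1ba, Gp1bb, Gp9, Gp6, Treml1 and Clec1b) moved in part with Itgb3. Their sum was 10.2 to 17.1 CPM among pre-basophils, 33.9 to 141 CPM among BM mature basophils and 152 to 335 CPM in the spleen, with all 8 genes detected in these 9 libraries. Between pre-basophils and BM mature basophils, 1 of these 8 markers was called, higher in pre-basophils, beside 27.3% of all genes. Their median log2 fold change in that comparison was -1.67. Within BM mature basophils, Pf4 was 110 CPM in replicate 1 and 21.0 and 15.0 CPM in replicates 2 and 3, while Itgb3 was 141, 129 and 159 CPM. The NK markers summed to 8.76 to 18.9 CPM among pre-basophils and 29.0 to 63.5 CPM among BM mature basophils, and the monocyte and dendritic cell markers to 81.1 to 107 CPM and 201 to 239 CPM. Of the NK markers, 0 of 8 were called between these groups. Of the monocyte and dendritic cell markers, 1 of 5 tested was called, lower in pre-basophils. The part of such cells in the differences of Itga2, Itgam, Itgb3 and Itga2b was not tested.

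Itga4, the CD49d chain, was the member with the largest difference in favour of BaPs over pre-basophils, and its size rested on 1 library. It was at 75.0, 89.8 and 321 CPM among BaPs, 43.9, 64.3 and 48.5 CPM among pre-basophils, 51.6, 50.3 and 50.2 CPM among BM mature basophils and 73.8, 57.8 and 69.6 CPM in the spleen. All 3 BaP libraries lay above all others, with replicate 3 far above its group. BaPs exceeded pre-basophils by a log2 fold change of 1.65 ± 0.41 SE (adjusted p = 0.0294), and by 0.67 ± 0.15 SE (adjusted p = 0.00713) without BaP replicate 3. The call was lost with replicate number as a block in the bone marrow libraries alone (1.45, adjusted p = 0.0507) and without any 1 of the pre-basophil libraries (0.0762 to 0.116), with limma-voom (0.0579) and with the compared groups alone (0.118). Cerkl overlaps 2581 bases of Itga4 on the other strand, and its counts were 0.637% to 7.41% of those of Itga4 in a library. Whether strand was used in counting was not given in the sources used here.

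Read side by side, 6 of the 10 chains were called between BM mature basophils and pre-basophils, and all 6 (Itga2, Itgal, Itgam, Itgb1, Itgb3 and Itgb7) were lower in pre-basophils. Of all tested genes 27.3% were called in this comparison, 16.3% higher and 11% lower in pre-basophils. The median log2 fold change was -0.46 over the 10 chains and -0.0044 over all tested genes. Without BaP replicate 3, which enters the estimate of the spread, Itgb2 was called too and was higher in pre-basophils (0.25, adjusted p = 0.0472).

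Between BaPs and pre-basophils, 4 chains were lower in BaPs (Itga2, Itgam, Itgb2 and Itgb7) and Itga4 was higher. The share of all genes called was 7.08%, with 2.79% higher and 4.29% lower in BaPs, and the medians were -0.47 over the chains and 0.02 over all genes. Without BaP replicate 3, Itgb1 and Itgb3 joined the 4 lower chains, and 12.4% of all genes were called. Without any 1 of the pre-basophil libraries, the called chains were Itgam, Itgb2 and Itgb7. With replicate number as a block in the bone marrow libraries alone, Itga4 lost its call (adjusted p = 0.0507). Itga2b then gained one, lower in BaPs (adjusted p = 0.0431).

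Between spleen and BM mature basophils, Itgb2 was the only chain called, lower in the spleen. Of all genes, 7.83% were called, 3.16% higher and 4.67% lower in the spleen. Without BaP replicate 3, 5 chains were called, with Itga4, Itgal and Itgb3 higher and Itgam and Itgb2 lower in the spleen, and 18.0% of all genes were called. Leaving out BM mature replicate 1 or 2 or spleen mature replicate 3 left none of the chains with a call. B cell markers summed to 187 to 336 CPM in the spleen libraries and 36.9 to 50.7 CPM among BM mature basophils. B cells carry Itgal and Itga4, and their part in the spleen values was not tested.

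**Figure D3:**
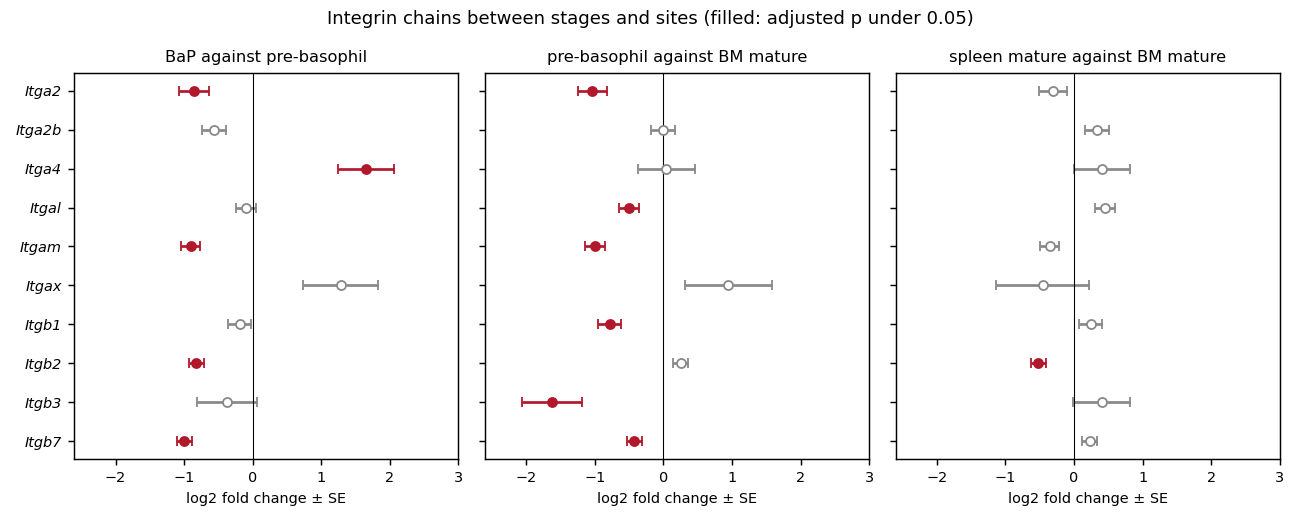
Log2 fold change ± SE (x axis) of the 10 integrin chains (y axis) in 3 comparisons, first-named group over second, with filled points for an adjusted p under 0.05. Itga2, Itgam and Itgb7 are called and negative both from BaP to pre-basophil and from pre-basophil to BM mature, and Itgb2 is the only filled point between spleen and BM mature.

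All 10 chains were called between BaPs and BM mature basophils, 8 lower in BaPs and Itga4 and Itgax higher, where 45.0% of all genes were called, 25.3% higher and 19.7% lower. Itgb3 was 4.0-fold lower in BaPs (log2 fold change -2.0 ± 0.44 SE, adjusted p = 0.00205), Itgam 3.74-fold (-1.90 ± 0.15 SE, adjusted p = 4.31e-07), Itga2 3.72-fold (-1.90 ± 0.22 SE, adjusted p = 1.26e-05) and Itgb7 2.68-fold (-1.42 ± 0.11 SE, adjusted p = 5.29e-07). Without BaP replicate 3 the value of Itgb3 was -3.24 ± 0.17 SE and that of Itga4 fell from 1.69 to 0.71. With scaling by library size alone 7 chains were called, and beside Itga2b the calls of Itgal (-0.15, adjusted p = 0.516) and Itgb2 (-0.15, adjusted p = 0.332) were lost. Between BaPs and spleen mature basophils, 9 chains were called, 7 lower in BaPs and Itga4 and Itgax higher, where 54.5% of all genes were called (29.8% higher, 24.6% lower). The exception was Itgb2, at -0.05 ± 0.11 SE (adjusted p = 0.724), and Itga4 lost its call without BaP replicate 3 (0.31, adjusted p = 0.0759) and without spleen mature replicate 2 (1.18, adjusted p = 0.0559), and with the compared groups fitted alone (adjusted p = 0.0602). In this comparison Itgb3 moved from -2.40 to -3.64 and Itgax from 2.68 to 1.42 without BaP replicate 3, both called. Between pre-basophils and spleen mature basophils, 6 chains were lower in pre-basophils and Itgb2 was higher (log2 fold change 0.77 ± 0.11 SE, adjusted p = 8.12e-05), where 45.7% of all genes were called (25.2% higher, 20.5% lower). Itga2 was 1.66-fold lower there (-0.73 ± 0.21 SE, adjusted p = 0.0128) and lost its call without pre-basophil replicate 3 (0.0589) or spleen mature replicate 2 (0.0649), and with scaling by library size alone (0.0613). An F test over the 4 groups called all 10 chains and 57.8% of all genes. These comparisons share libraries and are not independent of each other.

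**Figure D4:**
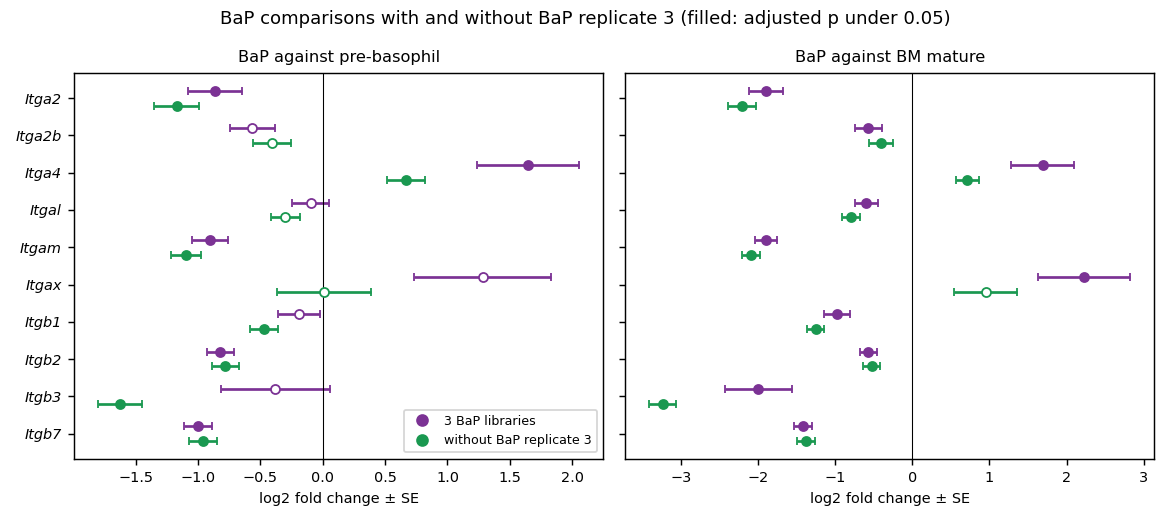
Log2 fold change ± SE (x axis) of the 10 chains (y axis) for BaPs against pre-basophils and against BM mature basophils, with all 3 BaP libraries (purple) and without BaP replicate 3 (green), filled where the adjusted p is under 0.05. Itga4 moves from 1.65 to 0.67 and Itgb3 from -0.38 to -1.62 in the left panel, while Itgb2 and Itgb7 keep almost the same values.

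Itga2, Itgam and Itgb7 were the chains called lower at both steps within the bone marrow, and Itga4 was the chain called higher in BaPs at the first. Because these members moved together or in the opposite direction, the letters around their start sites are shown, from 250 bases before the annotated start to 50 after it (RefSeq, GRCm38.p6). Such a window was found for 7 of the 10 chains, and Itgal, Itgb2 and Itgb3 had no entry. Capitals mark motifs of transcription factor families that act in blood cells, searched on both strands. They were GATAA (GATA family), TGTGGT (RUNX), GGAAGT (ETS, the family of PU.1) and TTGCNNAA (C/EBP), and none of them contains another. The windows lie at chr13:114932051-114932350 (Itga2, minus strand), chr7:128062390-128062689 (Itgam, plus strand), chr15:102231886-102232185 (Itgb7, minus strand) and chr2:79255176-79255475 (Itga4, plus strand).
Itga2: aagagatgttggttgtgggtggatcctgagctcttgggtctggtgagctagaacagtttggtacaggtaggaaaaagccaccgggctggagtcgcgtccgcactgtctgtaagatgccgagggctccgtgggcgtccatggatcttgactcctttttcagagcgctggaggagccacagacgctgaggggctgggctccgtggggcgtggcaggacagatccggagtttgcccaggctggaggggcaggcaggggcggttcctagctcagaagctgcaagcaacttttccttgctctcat
Itgam: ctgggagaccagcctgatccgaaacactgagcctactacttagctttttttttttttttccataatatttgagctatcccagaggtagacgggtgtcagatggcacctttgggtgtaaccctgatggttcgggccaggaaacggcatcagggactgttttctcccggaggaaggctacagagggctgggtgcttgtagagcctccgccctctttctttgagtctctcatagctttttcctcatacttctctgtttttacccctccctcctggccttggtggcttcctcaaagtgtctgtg
Itgb7: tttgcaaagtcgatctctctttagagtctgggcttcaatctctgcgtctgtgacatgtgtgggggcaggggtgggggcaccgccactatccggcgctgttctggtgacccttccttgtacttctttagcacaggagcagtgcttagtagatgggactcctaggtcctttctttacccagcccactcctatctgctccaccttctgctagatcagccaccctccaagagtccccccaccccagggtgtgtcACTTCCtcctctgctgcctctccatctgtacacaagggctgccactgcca
Itga4: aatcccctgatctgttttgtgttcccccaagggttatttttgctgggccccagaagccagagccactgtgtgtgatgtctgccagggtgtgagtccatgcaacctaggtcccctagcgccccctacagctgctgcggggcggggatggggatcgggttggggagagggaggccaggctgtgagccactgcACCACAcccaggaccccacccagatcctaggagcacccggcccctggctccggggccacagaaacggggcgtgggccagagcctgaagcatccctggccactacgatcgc

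The windows of Itga2 and Itgam held none of the 4 motifs. That of Itgb7 held 1 GGAAGT, which reads ACTTCC on the strand printed and begins at the annotated start. That of Itga4 held 1 TGTGGT, which reads ACCACA on the strand printed and begins at position -60 from the start. Among 32851 promoter windows of the same length, GATAA occurred in 25.4%, TGTGGT in 16.8%, GGAAGT in 23.8% and TTGCNNAA in 10.8%, each counted on either strand. A match is a description and not a site, and an absent match says only that these letters are not in the window. GC content was 59.3% for Itga2, 50.3% for Itgam, 56.3% for Itgb7 and 64.3% for Itga4, with 13, 6, 5 and 10 CpG pairs.

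The other genes lie at chr11:102453297-102470122 (Itga2b, minus strand), chr11:104608000-104670476 (Itgb3), chr2:79255426-79333123 (Itga4), chr7:127296260-127335138 (Itgal), chr7:128129547-128150657 (Itgax), chr8:128685654-128733200 (Itgb1), chr10:77530252-77565708 (Itgb2) and chr15:102215995-102231944 (Itgb7, minus strand), on the plus strand where none is given. Each longest coding transcript of an alpha chain has 28 to 31 exons and that of a beta chain 15 or 16. Levels of different chains were compared per kilobase of the longest coding transcript, averaged over the 12 libraries. The comparison, like the shares and ratios per kilobase above, assumes that reads spread over the whole transcript. That spread was not given in the sources used here. Itga2b came first with 155 CPM per kilobase, followed by Itgb7 (138), Itgb2 (91.6), Itgb1 (60.7), Itgal (31.8), Itgam (30.0), Itgb3 (17.8), Itga2 (15.6), Itga4 (8.5) and Itgax (1.68). With the median coding transcript length instead, Itgb7 (863) and Itgb2 (432) stood before Itga2b (155), since the annotation lists short coding transcripts for both. In BM mature basophils Itga2 was at 24.3 ± 3.44 and its partner Itgb1 at 74.2 ± 5.94 CPM per kilobase (SD, n = 3).

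Of 17 other integrin chains in the table, 9 passed the filter. Between pre-basophils and BM mature basophils, 2 of the 9 were called higher in pre-basophils and 3 lower, with a median log2 fold change of -0.11, where 27.3% of all genes were called. Itgae, the CD103 chain that pairs with Itgb7 and binds E-cadherin, was 0.839 to 2.92 CPM among pre-basophils and 10.5 to 12.4 CPM among BM mature basophils (log2 fold change -2.52 ± 0.37 SE, adjusted p = 0.000236). Itga6, a laminin receptor chain, was also lower in pre-basophils (-1.17 ± 0.36 SE, adjusted p = 0.0270), as was Itgb5, a partner of Itgav (-2.01 ± 0.57 SE, adjusted p = 0.0185). Itga8 was higher (1.75 ± 0.36 SE, adjusted p = 0.00276), and so was Itgad, for which 34 counts in pre-basophils stood against 6 in BM mature basophils over 3 libraries each (adjusted p = 0.0293). Itga1, Itga5, Itga7 and Itgav were not called in this comparison.

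Itga1, the alpha chain of another collagen receptor with Itgb1, was called between BaPs and pre-basophils. It was at 32.0, 36.1 and 29.8 CPM among BaPs and 55.3, 59.4 and 49.6 CPM among pre-basophils (log2 fold change -0.75 ± 0.13 SE, adjusted p = 0.00496). It was the only 1 of these 9 chains to be called there with all libraries, beside 7.08% of all genes. When BaP replicate 3 was left out, Itga1 (-0.67, adjusted p = 0.00438) and Itga6 (-0.96, adjusted p = 0.00937) were called among 8 tested chains, beside 12.4% of all genes. Between spleen and BM mature basophils, Itga5, the fibronectin receptor chain, was higher in the spleen (1.01 ± 0.20 SE, adjusted p = 0.0117) and Itga8 was lower (-1.67 ± 0.43 SE, adjusted p = 0.0323). Of all genes, 7.83% were called there. Between BaPs and BM mature basophils, 2 of the 9 were called higher and 4 lower in BaPs, with Itgae at -2.88 ± 0.37 SE (adjusted p = 2.8e-05) and at -3.52 ± 0.41 SE without BaP replicate 3. In this comparison 45.0% of all genes were called with all libraries, 25.3% higher and 19.7% lower in BaPs.

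The genes that switch integrins on and tie them to actin were covered by a list of 32, of which 28 were tested. In pre-basophils against BM mature basophils, 10 were called lower, 2 higher and 16 not, with a median log2 fold change of -0.29, beside 27.3% of all genes called (11% lower, 16.3% higher). Zyx, a focal adhesion protein and the most abundant gene of the list, was at 735, 651 and 654 CPM among pre-basophils and at 1288, 1117 and 1168 CPM among BM mature basophils (log2 fold change -0.81 ± 0.10 SE, adjusted p = 8.11e-05). The lowest values were those of Skap1, an adaptor of LFA-1 activation (-1.21 ± 0.41 SE, adjusted p = 0.0414), Ptk2b, the kinase Pyk2 (-0.99 ± 0.17 SE, adjusted p = 0.000645), and Rap1b, a small GTPase of integrin activation (-0.92 ± 0.13 SE, adjusted p = 0.000142). Parvb and Parvg, which link integrin-linked kinase to actin, were higher (1.44 ± 0.42 and 0.94 ± 0.20 SE, adjusted p = 0.0215 and 0.0035). Tln1, encoding talin, which binds the beta chain tail, was at 622 to 718 CPM among pre-basophils and 658 to 784 CPM among BM mature basophils and was not called.

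In BaPs against pre-basophils 3 genes of that list were called, all lower in BaPs, beside 7.08% of all genes. They were Vcl, encoding vinculin (log2 fold change -1.13 ± 0.11 SE, adjusted p = 9.72e-05), Zyx (-0.88 ± 0.10 SE, adjusted p = 0.000406) and Fyb, an adaptor bound by Skap1 (-0.79 ± 0.12 SE, adjusted p = 0.00152). Without BaP replicate 3 their values were -1.13, -0.85 and -0.66, and 7 genes of the list were lower and 2 higher, beside 12.4% of all genes called. In spleen against BM mature basophils 3 were higher (Parvb, Flna and Rasgrp2) and 3 lower (Vcl, Itgb1bp1 and Zyx), and in BaPs against BM mature basophils 20 were lower and 2 higher, beside 7.83% and 45.0% of all genes called. Parvb is also found in platelets, whose markers were higher in the spleen libraries, as given above. In pre-basophils, where Parvb was higher than in BM mature basophils, these markers summed to 10.2 to 17.1 CPM against 33.9 to 141 CPM. The part of platelets in the Parvb differences was not tested.

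Of 20 ligand genes, 11 were tested. In pre-basophils against BM mature basophils 3 were called, a share of the list that matches that of all genes (27.3%), and all 3 were higher in pre-basophils: C3, the complement source of the Mac-1 ligand (log2 fold change 2.81 ± 0.41 SE, adjusted p = 0.000245), Icam4 (1.92 ± 0.41 SE, adjusted p = 0.0034) and Spp1, encoding osteopontin (1.76 ± 0.35 SE, adjusted p = 0.00217). Cdh1 (-0.40, adjusted p = 0.00129) and Vcam1 (-0.92, adjusted p = 0.0334) were called too, and lower in pre-basophils, without BaP replicate 3, beside 35.7% of all genes. C3 stayed low in level, at 5.59 to 7.55 CPM against 0.501 to 1.27 CPM. The most abundant ligand gene was Cdh1, E-cadherin, which is bound by the pair of Itgae and Itgb7. It was at 240, 238 and 142 CPM among BaPs and 333, 368 and 358 CPM among pre-basophils (-0.77 ± 0.16 SE, adjusted p = 0.0137) and was the single ligand gene called there with all libraries, beside 7.08% of all genes. Its value was -0.55 (adjusted p = 0.00132) without BaP replicate 3, and Icam1 (-0.54, adjusted p = 0.0216) and Spp1 (-0.82, adjusted p = 0.0401) were then called lower as well, beside 12.4% of all genes. In the spleen against the BM, Icam1 (-1.18 ± 0.14 SE, adjusted p = 0.00112) and Spp1 (-2.76 ± 0.44 SE, adjusted p = 0.00411) were lower, beside 7.83% of all genes called.

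**Figure D5:**
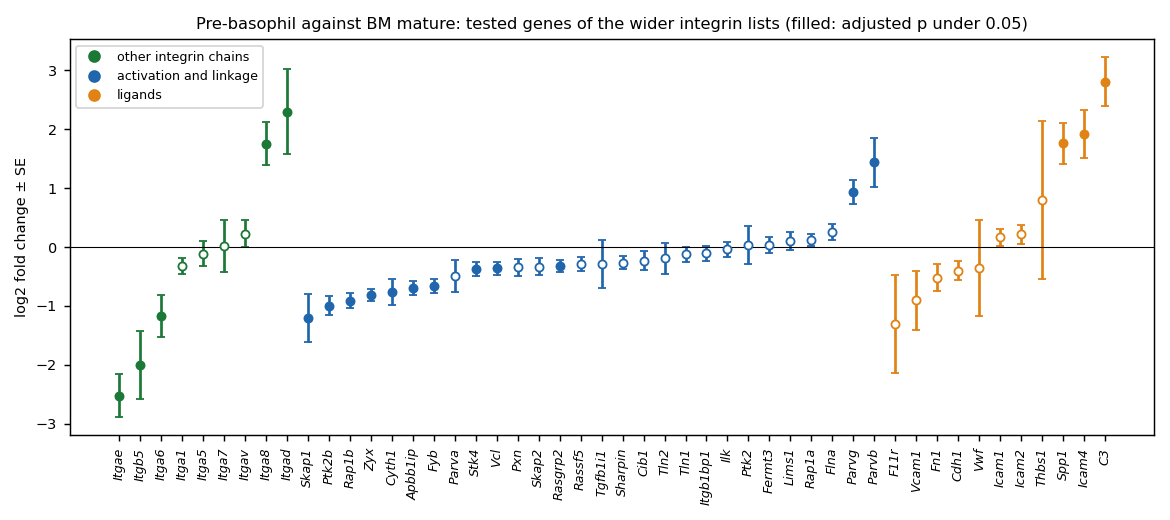
Log2 fold change ± SE (y axis) of pre-basophils against BM mature basophils for the tested genes (x axis) of 3 lists, other integrin chains (green), activation and linkage (blue) and ligands (orange), filled where the adjusted p is under 0.05. Itgae (-2.52) is lowest and C3 (2.81) highest.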

How the data were processed

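Sorted cells were lysed, and polyadenylated RNA was captured and amplified by the TAS-Seq workflow for the whole transcriptome. The sources used here did not give the spread of reads along a transcript. They also named no molecular identifiers for these libraries, so PCR copies may count as separate reads. The authors trimmed reads with Cutadapt 3.4, mapped them with Bowtie2 2.4.2 to reference transcripts and deposited raw counts per gene without normalization. Their methods name GRCm38 and the submitters' processing notes GRCm39. Coordinates and transcript lengths here are from GENCODE M21 on GRCm38. The handling of multi-mapping reads was not given in the sources used here.

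Counts of all 12 libraries were filtered with filterByExpr, scaled by TMM, the trimmed mean of M-values (factors 0.844 to 1.30) and fitted with a coefficient per group in edgeR 4.0.16 (R 4.3.3). Contrasts used the quasi-likelihood F test, with p-values adjusted by Benjamini-Hochberg over all 15083 tested genes and called at an adjusted p under 0.05. The method was tested on simulated data, for pre-basophils against BM mature basophils only. The simulation gave each gene the same spread in all libraries, so it did not cover an outlying library such as BaP replicate 3. CPM use TMM-scaled totals, and log2 CPM for likeness to Itga2 used a prior count of 2. Groups came from the sample titles. A count of 0 allows up to 3 counts, or 0.290 to 0.955 CPM by library, for counting error only. No library pair of a group agreed within sampling noise (chi-square per degree of freedom 4.16 to 35.0).

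The deviations from group means of same-numbered libraries correlated at 0.125 to 0.262 for all 9 pairs of bone marrow groups and at most at 0.0899 for pairs with the spleen, so the numbers were taken to pair the bone marrow libraries only. The main fit did not use this pairing. The authors' package TCC was not used. Its DEGES scheme (repeated TMM without called genes) was rebuilt in edgeR. Other alternatives were 3 further scalings, no filter, DESeq2 1.42.0, limma-voom (limma 3.58.1), the compared groups alone, the replicate number as a block and each library left out. The bone marrow block and the addition of Gm49368 to Itgam were chosen after seeing the data.

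The members and all gene lists were chosen with earlier results of these data known. Named genes were the members, tested chains of the family, the most abundant gene and up to 3 called genes at each end of the activation and ligand lists, the 5 genes most like Itga2, and markers. Tln1 was named after its values were seen. No adjustment over a list and no set test was made.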

Additional observations from a re-analysis of the deposited data

How the results depend on the processing

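Scaling by library size alone shifted the median change over all tested genes (log2) to 0.22 (pre-basophils against BM mature), 0.23 (BaPs against pre-basophils), 0.14 (spleen against BM mature) and 0.48 (BaPs against BM mature), and 82.5%, 79.6%, 60.6% and 82.9% of called genes were then higher in the first group, against 59.8%, 39.4%, 40.4% and 56.3% with TMM. Against the spleen, 73.7% of genes called in BaPs were then higher, against 54.7%. With that scaling, 1620 genes were called between BaPs and pre-basophils in place of 1068, no chain between spleen and BM mature basophils, and Itgal, Itgb1 and Itgb7 lost their calls between BM mature basophils and pre-basophils (adjusted p = 0.297, 0.0582 and 0.203), while Itgb2 gained one, higher in pre-basophils (0.47, adjusted p = 0.0106). Signs turned with it for Itga2b between BM mature basophils and pre-basophils (0.22), for Itgal (0.12) and Itgb1 (0.037) between BaPs and pre-basophils and for Itgb2 between BaPs and spleen (0.24). DEGES scaling turned the same values of Itga2b (0.083) and Itgb2 (0.085), and upper-quartile scaling that of Itga4 between BM mature basophils and pre-basophils (-0.0097). None of these had been called. Without the filter on low counts, 2091 genes were called between BaPs and pre-basophils and 1796 between spleen and BM mature basophils, where Itgal joined Itgb2 (2 chains). DESeq2 and the replicate block also called these 2 chains. With the compared groups alone, 375 genes and 3 chains (Itgam, Itgb2 and Itgb7) were called between BaPs and pre-basophils, and 2340 genes and 5 chains between spleen and BM mature basophils. The cause of these shifts was not tested.

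Leaving out 1 library at a time gave 3 to 7 chains and 382 to 1831 genes between BaPs and pre-basophils, and 0 to 5 chains and 241 to 2653 genes between spleen and BM mature basophils. Log2 fold changes then ran from -0.061 to 0.053 for Itga2b and -0.12 to 0.15 for Itga4 between BM mature basophils and pre-basophils, from -1.62 to 0.0068 for Itgb3 and -0.30 to 0.018 for Itgal between BaPs and pre-basophils, and from -0.11 to 0.013 for Itgb2 between BaPs and spleen. The replicate block over all 12 libraries left 6 chains called between BM mature basophils and pre-basophils and 5 between BaPs and pre-basophils, and added Itgal between spleen and BM mature basophils (0.46, adjusted p = 0.0293) and Itgax between pre-basophils and spleen (1.43, adjusted p = 0.0242). Within the bone marrow, the block changed no call on a chain beside those of Itga2b and Itga4 given with their values. The Itgam share among the chains that pair with Itgb2 was 45.0% in pre-basophils with raw counts in place of values per kilobase, and 50.4% in pre-basophils and 47.1% in the spleen with the reads of Gm49368 added. Calls on Itgax, Itgad, Itgae and Itgb5 rest on low counts, at most 46 per library for Itgad. Itgb5 had 7, 4 and 12 counts in the pre-basophil libraries and 25, 27 and 29 in the BM mature ones.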
